A study of Mus musculus with 12 samples.

Results

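A group of 10 genes of the p53 pathway were examined in skeletal muscle: Trp53, which encodes the transcription factor p53, and Mdm2, Bax, Bbc3, Ccng1, Aen, Sesn1, Gadd45a, Zmat3 and Trp53inp1, which are known targets of p53. They were chosen by name, are 10 of the 24421 entries of the count table, and all 10 passed the filter on low counts that left 13937 genes for testing. The tissue was the tibialis anterior, which lifts the foot, taken from 12 males at 4 months of age, and its mRNA was sequenced. The 6 wild-type mice (WT) were of strain C57Bl/6, and the 6 others were labelled with the strain mdx/mTR. The mdx mutation removes dystrophin, the product of Dmd, from muscle fibres, and mTR stands for the mouse telomerase RNA gene; the generation of telomerase loss and the background strain of the mutants are not given in the sources used here. No group carried 1 of the alleles alone, so the effects of losing dystrophin and of losing telomerase RNA cannot be told apart.

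The p53 protein is held at a low level by Mdm2, a ubiquitin ligase that marks it for degradation and is itself transcribed from a p53 target gene, which closes a negative feedback loop. DNA damage, short telomeres, growth signals and other stresses free p53 from Mdm2, mostly through changes of the protein rather than of Trp53 mRNA. Active p53 switches on genes that stop the cell cycle, repair DNA, protect against oxidative stress or start cell death through proteins of the BCL2 family. Several of these genes also respond to other factors in muscle: Gadd45a and Cdkn1a are induced when muscle loses its nerve supply, and Sesn1 is also a target of FoxO factors.

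The binding motif of p53 consists of a pair of half-sites of 10 bases, and the stretches that hold such a half-site are shown to let the letters be seen beside the values of each gene. Promoter windows of 300 bases (250 before the start site, 50 after it; RefSeq, GRCm38.p6) were found for 8 of the 10 genes and searched for exact matches to the consensus half-site of p53, which reads the same on both strands. The closest pair of half-sites was also searched. A match was present for 7 of these 8 genes, against 9.55% of all genes with a window (8.36% of all 32851 windows). All of these genes but Trp53 were chosen as known targets of p53, so a share above that of all genes is no independent result. A match is a description of the letters and not evidence that p53 was bound. Each line gives the matched half-site in capitals with 10 bases on either side, 5′ to 3′ on the strand of the gene.
Mdm2 at chr10:117710925-117710954, minus strand: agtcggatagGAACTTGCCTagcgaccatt
Ccng1 at chr11:40755452-40755481, minus strand: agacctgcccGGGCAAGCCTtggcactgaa
Aen at chr7:78895927-78895956, plus strand: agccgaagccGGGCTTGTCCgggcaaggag
Bax at chr7:45467080-45467109, minus strand: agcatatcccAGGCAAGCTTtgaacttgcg
Gadd45a at chr6:67037428-67037457, minus strand: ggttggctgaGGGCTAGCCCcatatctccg
Sesn1 at chr10:41887256-41887285, plus strand: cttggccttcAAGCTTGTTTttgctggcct
Trp53 at chr11:69580274-69580303, plus strand: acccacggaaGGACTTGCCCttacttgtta
Bbc3 had no exact match in its windows. The nearest to a complete motif was a pair of adjoining half-sites, with 3 of 20 letters off the consensus, at chr7:16309486-16309505 on the plus strand: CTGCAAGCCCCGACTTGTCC (capitals mark both half-sites). Another of its windows held a pair with 3 letters off and a spacer.

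Library totals ran from 35136327 to 60330410 counts, and the check of the labels held for all libraries: Dmd lay at 228 to 244 CPM in WT and 35.2 to 56.4 CPM in mdx/mTR. CPM, the normalised level used throughout, is a count relative to its library size after scaling by the trimmed mean of M-values (TMM). The marker lists of other cells differed between the groups. Macrophage markers rose for 7 of 7 genes (summed level 70.2 to 122 CPM in WT, 212 to 613 CPM in mdx/mTR). Fibroblast markers rose for 6 of 6 (869.8 to 1593 and 2226 to 4434 CPM). Satellite cell and myoblast markers rose for 4 of 6, most strongly Myog (mean 2.87 to 15.8 CPM) and Myod1 (19.5 to 37.1 CPM). Pax7 (mean 3.03 and 3.32 CPM, edgeR adjusted p 0.436) and Des (edgeR adjusted p 0.0539) did not pass. The sum of this list was 33.9 to 42.0 and 50.4 to 90.1 CPM without Des. Des takes up most of the full sum of 3553 to 3820 and 3758 to 4487 CPM, in which the groups overlapped. Neutrophil markers rose for 1 of 2 tested (0.250 to 0.972 and 0.610 to 5.86 CPM) and markers of dividing cells for 3 of 3 tested (0.778 to 10.6 and 4.42 to 31.7 CPM). Endothelial markers fell for 3 of 5 (434 to 574 and 342 to 444 CPM), the single tested marker of T and B cells did not pass (summed level 0.305 to 1.48 and 0.540 to 1.33 CPM), and myofibre markers, with 1 of 8 higher and 2 lower, summed to 193132 to 222275 CPM in WT and 151370.0 to 208660.0 CPM in mdx/mTR. None of the listed markers that have an entry was at 0 in all libraries. In whole muscle, fewer cells of a type and less RNA per cell cannot be told apart, and the part of these cell types in the changes below was not tested.

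The design sets the mutant muscles against the wild-type muscles, gene by gene. Bbc3, Gadd45a and Sesn1 rose in mdx/mTR, Aen, Ccng1 and Mdm2 fell, and Trp53, Bax, Trp53inp1 and Zmat3 did not pass an adjusted p of 0.05. Thus 3 of the 10 genes were higher and 3 lower in edgeR's quasi-likelihood test, against 25.0% of all tested genes higher and 23.4% lower, so the shares are close to the background. The groups did not overlap for 5 of the 10, against 25.2% of all tested genes. The median log2 fold change was 0.16 over the 10 genes and 0.01 over all tested genes. With libraries scaled by their totals alone, which raises the median of all genes from 0.01 to 0.17, the split was 5 higher and 3 lower, with Bax and Trp53inp1 added. Under that scaling, 5596 of the 13937 tested genes were higher and 1560 lower.

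**Figure D1:**
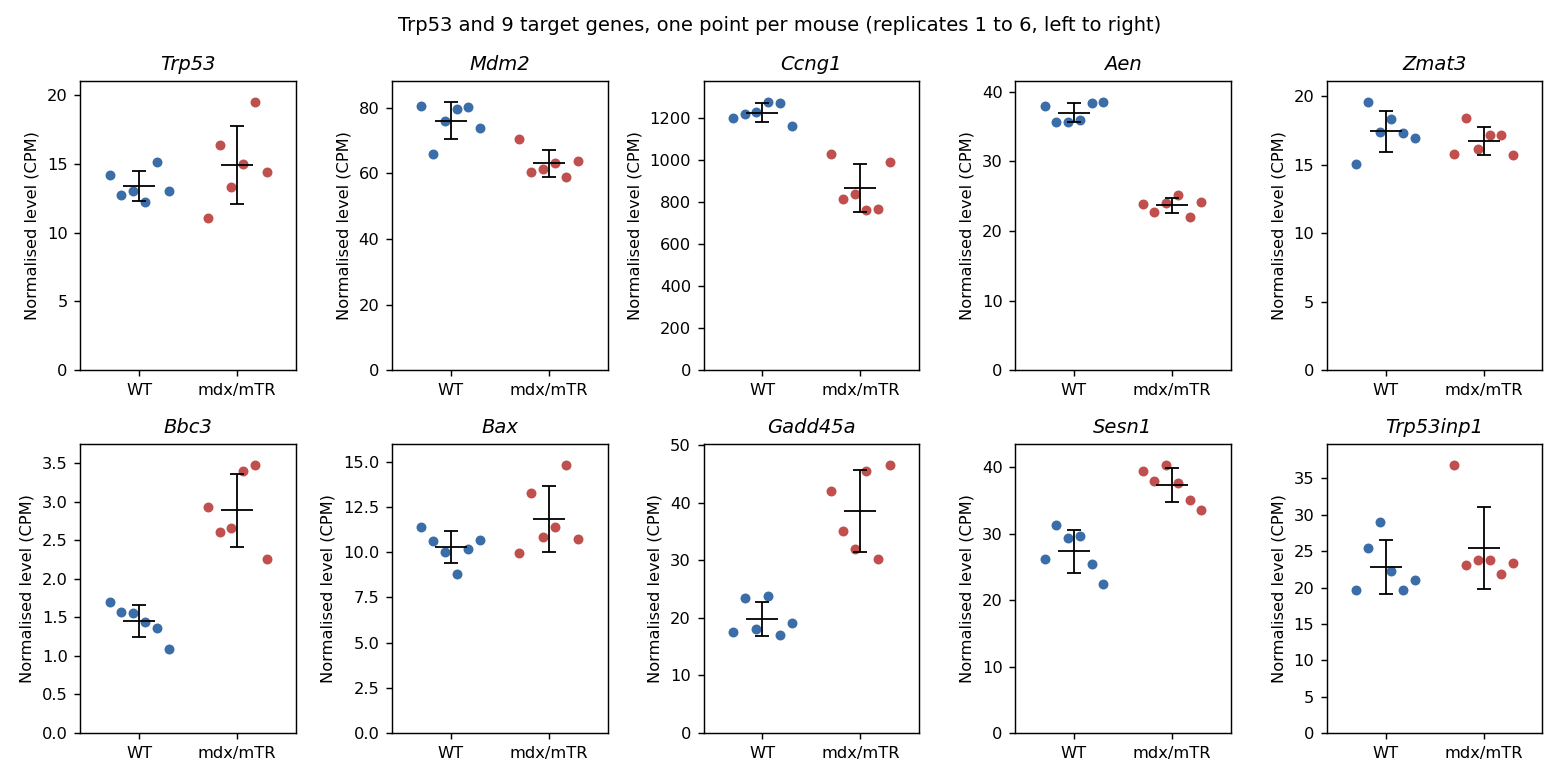
Normalised level (CPM, linear axes from 0) of Trp53 and 9 target genes in each mouse, with the mean and SD of the 6 mice of a group; points run from replicate 1 at the left to replicate 6 at the right. All 6 mdx/mTR mice lie above all WT mice for Bbc3, Gadd45a and Sesn1 and below them for Ccng1 and Aen, while the groups overlap for the other 5 genes.

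Trp53 (chromosome 11, 69580359 to 69591873, GENCODE M21 on GRCm38, plus strand) had 12.2, 13.03 and 15.2 CPM as the lowest, median and highest WT level, and 11.1, 14.7 and 19.5 CPM in mdx/mTR; triplets of levels below are given in this order. The mutant range contained the whole WT range, with 2 mutant mice above and 1 below it. The means were 13.4 ± 1.09 and 14.9 ± 2.83 CPM (SD, n = 6 each, as for all means below), a fold of 1.11 with a 95% interval of 0.945 to 1.31 (edgeR adjusted p 0.263). A pseudogene, Trp53-ps, shares 7.43% of the 50-base stretches of the Trp53 transcript, so this part of its count is uncertain.

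Mdm2 (chromosome 10, 117688875 to 117710758, minus strand), which encodes the ubiquitin ligase that degrades p53, had 65.9, 77.8 and 80.5 CPM in WT and 59.0, 62.2 and 70.4 CPM in mdx/mTR. In 5 of 6 mutant mice it lay below the WT range, and mdx/mTR replicate 1 lay inside it. Its mean fell from 76.0 ± 5.61 to 63.0 ± 4.01 CPM (edgeR log2 fold change -0.27 ± 0.06 SE, adjusted p 0.00173). The fall was smaller with library totals alone, at -0.12 (adjusted p 0.0478). Mdm4, the paralog whose protein binds and blocks p53 without degrading it efficiently alone, had 53.9, 57.3 and 60.0 CPM in WT and 55.1, 61.2 and 64.8 CPM in mdx/mTR (edgeR log2 fold change 0.08 ± 0.05 SE, adjusted p 0.158). It passed with upper quartile scaling (0.12, adjusted p 0.0363) and with library totals alone (0.24, adjusted p 8.38e-04).

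Ratios of counts within a library do not depend on the scaling between libraries. The log2 ratio of Mdm2 to Trp53 counts was between 2.37 and 2.70 in WT (median 2.50) and between 1.599 and 2.66 in mdx/mTR (median 2.11). Only mdx/mTR replicate 1 lay inside the WT range, and the other 5 mutant mice lay below it. The mean ratio was lower by 0.41 in mdx/mTR (2.50 ± 0.12 and 2.10 ± 0.35; two-sided exact permutation test p 0.0195, adjusted over 3 ratios 0.0195). The log2 ratio of Mdm2 to Mdm4 was between 0.21 and 0.57 in wild-type mice and between -0.03 and 0.19 in mutant mice, and the groups did not overlap. Its difference was -0.35 (two-sided exact permutation test p 0.00216, the smallest this design allows; adjusted 0.00325). In plain counts, Mdm2 exceeded Mdm4 by a factor of 1.33 in WT and 1.04 in mdx/mTR, a ratio that transcript lengths also set.

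**Figure D2:**
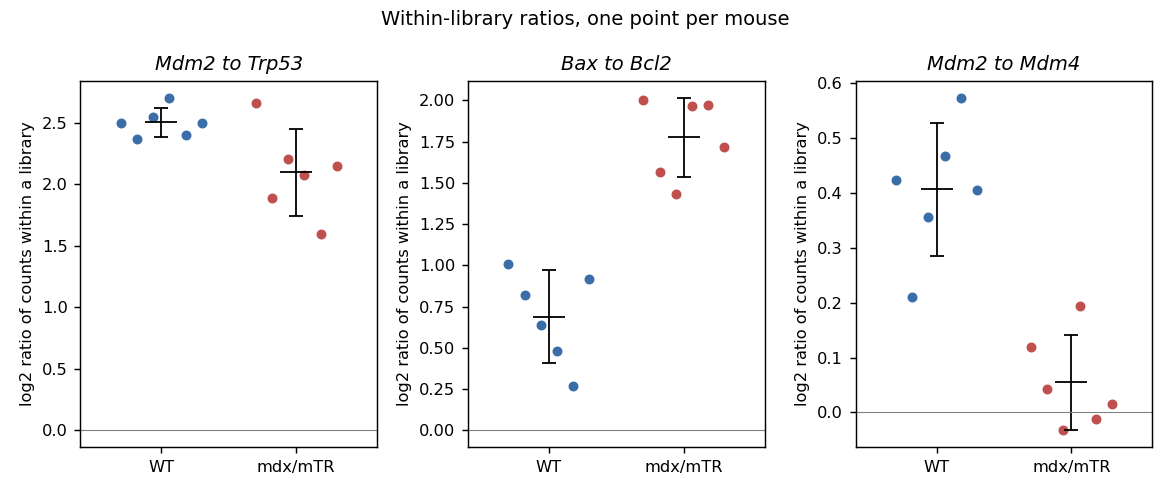
Log2 ratio of the counts of 2 genes within each library, for Mdm2 to Trp53, Bax to Bcl2 and Mdm2 to Mdm4, with the mean and SD of 6 mice per group. Bax to Bcl2 is higher and Mdm2 to Mdm4 lower in every mdx/mTR mouse than in every WT mouse, and Mdm2 to Trp53 overlaps through 1 mutant mouse.

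The targets with a role in cell death moved in different directions. Bbc3 (chromosome 7, 16308393 to 16318205, plus strand) encodes PUMA, a BH3-only protein that neutralises the protective members of the BCL2 family. It had 1.09, 1.49 and 1.69 CPM in WT and 2.26, 2.79 and 3.47 CPM in mdx/mTR, so that every mutant mouse lay above every WT mouse. The rise from 1.45 ± 0.209 to 2.89 ± 0.475 CPM (edgeR log2 fold change 0.99 ± 0.14 SE, adjusted p 8.16e-05) rested on 40 to 61 counts per WT library and 97 to 170 per mutant library.

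Bax (chromosome 7, 45461697 to 45466898, minus strand), whose protein permeabilises the outer mitochondrial membrane, had 8.81, 10.4 and 11.4 CPM in WT and 9.94, 11.1 and 14.8 CPM in mdx/mTR. Of the 6 mutant mice, 3 lay above the WT range and the rest inside it. The fold was 1.15 with a 95% interval of 0.995 to 1.33 (edgeR adjusted p 0.102). Bax passed without mdx/mTR replicate 1 (log2 fold change 0.25, adjusted p 0.0465) and with library totals alone (0.37, adjusted p 0.0237). The annotated gene Gm45808 covers 12.2% of its exon bases and shares 13.8% of its 50-base stretches.

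Aen (chromosome 7, 78895854 to 78911209, plus strand), a nuclease that degrades DNA in dying cells, had 35.6, 37.0 and 38.5 CPM in WT and 22.1, 24.0 and 25.2 CPM in mdx/mTR. The groups were far apart in relation to their narrow ranges. Its mean fell from 37.0 ± 1.39 to 23.7 ± 1.10 CPM (edgeR log2 fold change -0.64 ± 0.04 SE, adjusted p 2.51e-07). Bbc3 and Aen, both placed among the death-promoting targets, thus changed in opposite directions in the same muscles.

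The antagonist of Bax and Bak1 in the mitochondrial membrane, Bcl2, fell from 6.43 ± 1.05 to 3.49 ± 0.741 CPM (edgeR log2 fold change -0.88 ± 0.15 SE, adjusted p 2.77e-04), with WT at 5.66 to 8.46 CPM and mdx/mTR at 2.48 to 4.48 CPM. The log2 ratio of Bax to Bcl2 counts was between 0.27 and 1.01 in WT (median 0.73) and between 1.43 and 2.001 in mdx/mTR (median 1.84), with no overlap. Its mean rose by 1.09, from 0.69 ± 0.28 to 1.78 ± 0.24 (two-sided exact permutation test p 0.00216, the smallest possible; adjusted over 3 ratios 0.00325), in a comparison where Bax itself did not pass.

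Among the targets tied to growth arrest and stress, Ccng1 (chromosome 11, 40748552 to 40755311, minus strand) encodes cyclin G1, a binding partner of Mdm2 and of a protein phosphatase. It had 1160, 1224 and 1274 CPM in WT and 764, 828 and 1028 CPM in mdx/mTR. All mutant mice lay below all WT mice, with replicates 1 and 6 nearest to the WT range. The mean fell from 1226 ± 43.4 to 868 ± 115 CPM (edgeR log2 fold change -0.50 ± 0.08 SE, adjusted p 2.04e-04).

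Gadd45a (chromosome 6, 67035096 to 67037457, minus strand), a small protein that acts in DNA demethylation, stress kinase signalling and cell cycle arrest, had 16.9, 18.6 and 23.7 CPM in WT and 30.3, 38.5 and 46.5 CPM in mdx/mTR. The lowest mutant mouse, replicate 5, exceeded the highest WT mouse. Its mean rose from 19.8 ± 2.98 to 38.5 ± 7.04 CPM (edgeR log2 fold change 0.96 ± 0.12 SE, adjusted p 3.90e-05). The antisense gene E230016M11Rik covers 19.1% of the exon bases of Gadd45a, and as strand handling is not given in the sources used here, reads of the overlap cannot be told apart. This partner had 5 to 19 counts per WT library and 19 to 62 per mutant library, against 633 to 893 and 1169 to 2840 for Gadd45a.

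Sesn1 (chromosome 10, 41809935 to 41908424, plus strand) encodes sestrin 1, a stress protein that restrains the growth kinase mTORC1 and supports antioxidant defence. It had 22.5, 27.7 and 31.3 CPM in WT and 33.6, 37.7 and 40.3 CPM in mdx/mTR. The ranges did not overlap, and the rise from 27.4 ± 3.27 to 37.3 ± 2.57 CPM had a log2 fold change of 0.45 ± 0.08 SE (edgeR adjusted p 3.66e-04).

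The last pair did not pass. Zmat3 (chromosome 3, 32334792 to 32366014, minus strand), an RNA-binding zinc finger protein, had 15.0, 17.3 and 19.5 CPM in WT and 15.7, 16.7 and 18.4 CPM in mdx/mTR, so that the mutant range lay inside the WT range. Its fold was 0.960 with a 95% interval of 0.871 to 1.06 (edgeR adjusted p 0.485), and its log2 fold change of -0.06 turned to 0.10 with library totals alone. Trp53inp1 (chromosome 4, 11156431 to 11174379, plus strand), a stress protein linked to p53 activation and autophagy, had 19.6, 21.6 and 29.0 CPM in WT and 21.9, 23.6 and 36.8 CPM in mdx/mTR. Its highest value, in mdx/mTR replicate 1, stood apart from the other mutant mice at 21.9 to 23.8 CPM. The fold of 1.12 (95% interval 0.918 to 1.36, edgeR adjusted p 0.337) corresponds to a log2 fold change of 0.16, which was 0.02 without that mouse and 0.31 with library totals alone (adjusted p 0.0478).

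**Figure D3:**
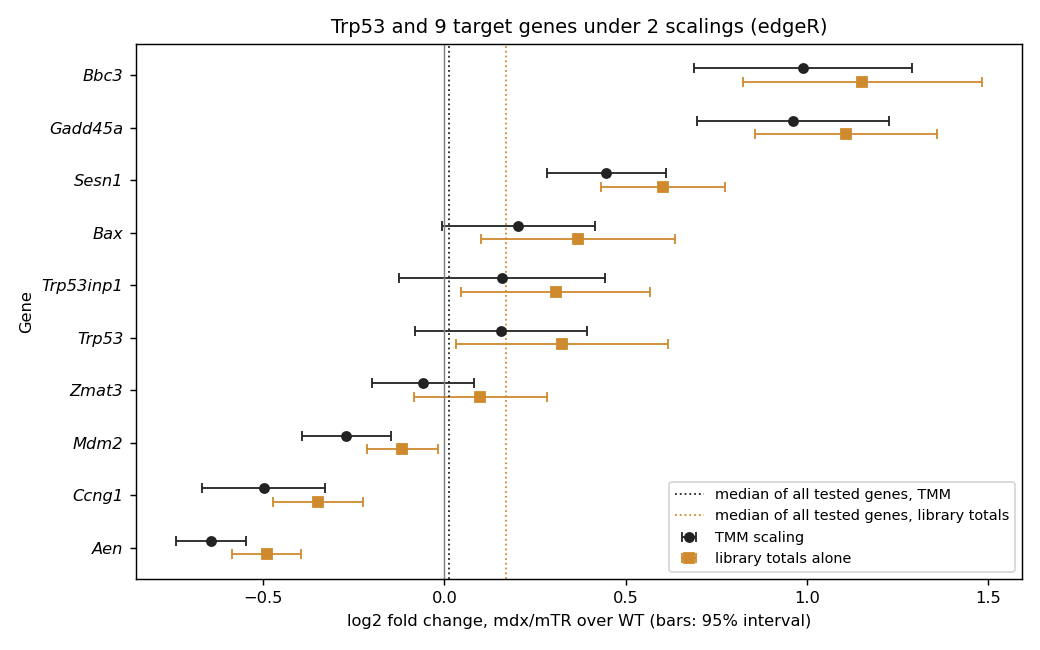
Fold change between the groups (log2, mutant over wild type) and its 95% interval for Trp53 and 9 target genes, under TMM scaling and with library totals alone; dotted lines mark the median of all tested genes under each scaling (0.01 and 0.17). Bbc3, Gadd45a and Sesn1 lie above 0 and Mdm2, Ccng1 and Aen below 0 under both scalings.

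The spread between mice differed among the genes. Within WT, the coefficient of variation was lowest for Ccng1 (3.54%) and Aen (3.75%) and highest for Trp53inp1 (16.4%) and Gadd45a (15.1%). In mdx/mTR, Aen remained narrow at 4.66%, while Ccng1 had 13.2%, Trp53 18.96% (8.14% in WT) and Trp53inp1 22.03%. Without mdx/mTR replicate 1 the value was 3.41% for Trp53inp1 and 3.18% for Mdm2 (6.36% with it). Over all tested genes the median biological coefficient of variation was 11.6%. Among mutant mice, replicate 5 was highest for 3 genes (Trp53, Bax and Bbc3) and lowest for 4 (Mdm2, Aen, Gadd45a and Trp53inp1). Replicate 1 showed the reverse for several of these, with the highest Mdm2, Ccng1 and Trp53inp1 and the lowest Trp53 and Bax. Trp53 and Bax thus had their lowest and highest mutant values in the same mice. The same 2 mice were lowest and highest for the macrophage markers Cd68 (7.69 and 29.7 CPM), Csf1r, Itgam, Mrc1 and Trem2. Adgre1 and Lyz2 were also highest in replicate 5 but lowest in replicate 6. The part of macrophages in the shared pattern of Trp53 and Bax was not tested.

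Levels of different genes were compared per kilobase of the union of annotated exons; whether the authors counted over the same exons is not given in the sources used here. Ccng1 was far above the others in WT, at 349 CPM per kb. Mdm2 followed at 14.9 CPM per kb and Gadd45a at 11.2, with ranges that overlapped (12.97 to 15.8 and 9.60 to 13.4). Sesn1 (6.87), Bax (6.53) and Aen (6.38 CPM per kb) formed a group with overlapping ranges, as did Trp53inp1 (3.52) and Trp53 (3.31). Zmat3 (1.52) and Bbc3 (0.683 CPM per kb) were the lowest and did not overlap. In mdx/mTR, Ccng1 still led at 247 CPM per kb, Gadd45a (21.8) stood above Mdm2 (12.4) without overlap, Aen (4.08) had a range that overlapped those of Trp53inp1 (3.93) and Trp53 (3.69), and Bbc3 (1.36) overlapped Zmat3 (1.46 CPM per kb). The order depended on the length used. Per kilobase of the longest coding transcript, an alternative chosen after seeing the data, Trp53 was at 7.18 CPM per kb in WT, among Sesn1 (7.19) and Aen (7.46) and above Trp53inp1 (4.22) without overlap, and Mdm2 (24.2) and Gadd45a (16.2) no longer overlapped. In mdx/mTR, Trp53 (7.9996 CPM per kb) then lay above Aen (4.78), and Zmat3 (2.15) above Bbc3 (1.59), both without overlap.

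Of 11 paralogs of these genes, 10 were tested. With TMM scaling 1 was higher and 0 were lower, against 25.0% and 23.4% of all tested genes (0 lower also at an unadjusted p under 0.05, and under every alternative including DESeq2). The number higher was 4 with library totals alone and 2 with upper quartile scaling. Isg20l2, a nuclease related to Aen, rose from 11.03 ± 0.755 to 12.6 ± 0.330 CPM (edgeR log2 fold change 0.19 ± 0.06 SE, adjusted p 0.0129), with 0.35 when libraries were scaled by totals alone, while its relative Isg20 was at 2.05 and 1.99 CPM. Beside the rise of Gadd45a, Gadd45b was at 23.9 ± 6.87 CPM in wild-type and 26.2 ± 4.72 CPM in mutant mice (edgeR adjusted p 0.531), and Gadd45g 29.4 ± 10.9 and 39.0 ± 29.8 CPM (edgeR adjusted p 0.434). Beside the rise of Sesn1, Sesn2 had 3.31 and 3.13 CPM and Sesn3 7.78 and 8.44 CPM. Beside the fall of Ccng1, Ccng2 had 25.9 and 28.1 CPM (edgeR adjusted p 0.164; log2 fold change 0.27, adjusted p 0.00210 with library totals alone). Trp53inp2, a regulator of autophagy, was at 939 and 913 CPM. Of the p53 family itself, Trp63 was at 12.01 and 13.7 CPM (edgeR adjusted p 0.230; log2 fold change 0.33, adjusted p 0.0254 with library totals alone), and Trp73, at 0.0626 and 0.0268 CPM, was too low to test. The differences between each gene and its paralogs were not tested.

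Of 20 regulators of p53, 3 were higher and 3 lower, against 25.0% and 23.4% of all tested genes. Of those not called, the ribosomal protein genes Rpl5 and Rpl11 rested on low counts, 12 to 26 and 11 to 19 per WT library. The counts were 8 and 2 with library totals alone, where 5596 of 13937 tested genes were higher and 1560 lower. Without WT replicate 2 and mdx/mTR replicate 5 they were 2 and 6. The median log2 fold change of -0.05 turned to 0.11 with library totals alone. Cdkn2a, whose locus encodes the Mdm2 inhibitor Arf and the kinase inhibitor Ink4a, had 5 counts in all WT libraries together, with 3 of 6 libraries at 0, and 1827 counts in mdx/mTR (2.76, 5.53 and 9.54 CPM as lowest, median and highest). The ratio of depth-adjusted counts was 255, with a 95% interval of 109 to 786 that covers counting error only (edgeR adjusted p 8.96e-08). Of the 5 WT counts, 3 came from WT replicate 2, and the edgeR log2 fold change was 7.81 with that mouse and 8.72 without it. A count per gene cannot separate its 2 products. Among CDK inhibitors, Cdkn1a, a p53 target that encodes p21, also rose, from 20.4 ± 6.02 to 49.3 ± 12.01 CPM (edgeR log2 fold change 1.27 ± 0.20 SE, adjusted p 1.64e-04).

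Other regulators fell. Hipk2, a kinase that phosphorylates p53, had 74.8, 103 and 131 CPM in WT and 50.4, 55.8 and 59.1 CPM in mdx/mTR. The ranges did not overlap (edgeR log2 fold change -0.89 ± 0.10 SE, adjusted p 1.27e-05). Ep300, an acetyltransferase that acts on p53, fell from 108 ± 6.68 to 77.7 ± 6.25 CPM (edgeR log2 fold change -0.47 ± 0.06 SE, adjusted p 3.48e-05). Cop1, listed as Rfwd2, a further ubiquitin ligase for p53, fell from 27.1 to 22.3 CPM (log2 fold change -0.28, edgeR adjusted p 0.00818), but had -0.12 with library totals alone (adjusted p 0.120). The remaining pair that rose, chosen for mention after their values were seen, were the phosphatase gene Ppm1d (8.81 to 10.2 CPM, edgeR adjusted p 0.00854, log2 fold change 0.21, and 0.36 with library totals alone) and the checkpoint kinase gene Chek1 (0.259 to 0.495 CPM, edgeR adjusted p 0.0455). The call for Chek1 was lost in 8 of 12 fits without 1 mouse.

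**Figure D4:**
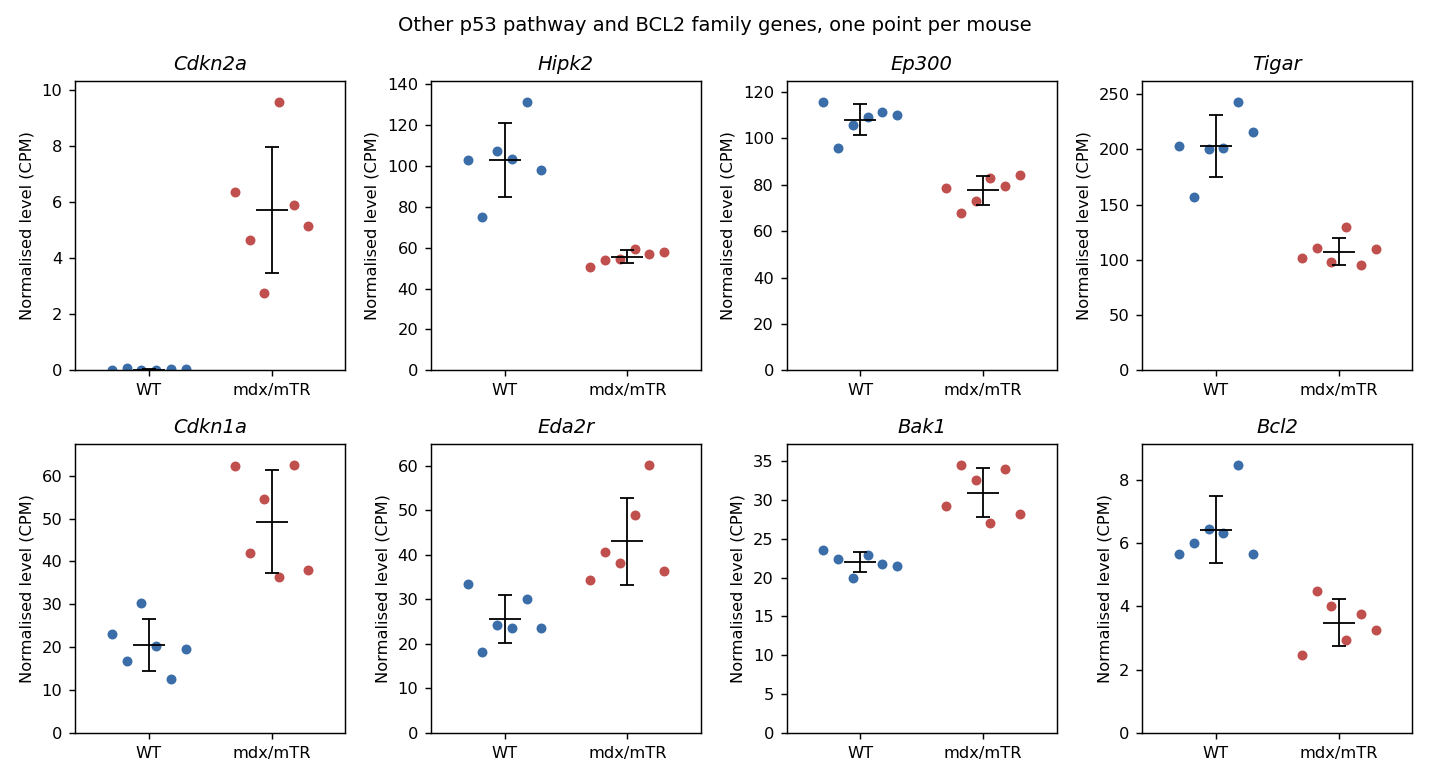
Normalised level (CPM, linear axes from 0) of 8 other genes of the p53 pathway and the BCL2 family in each mouse, with the mean and SD of the 6 mice of a group. Cdkn2a, Cdkn1a, Eda2r and Bak1 are higher and Hipk2, Ep300, Tigar and Bcl2 lower in all 6 mdx/mTR mice than in all 6 WT mice.

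The wider targets of p53 were described by 4 lists, which held 43 genes, 38 of them tested. Of these, 11 were higher, 9 lower and 18 did not pass, and their median log2 fold change was 0.14 against 0.01 over all tested genes. The share called was thus near the background of 48.3%. Of 7 tested cell cycle targets, 2 rose and 0 fell, against 25.0% and 23.4% of all tested genes. The 2 were Cdkn1a and the spindle protein gene Ckap2 (0.295 to 0.820 CPM, edgeR log2 fold change 1.48 ± 0.49 SE, adjusted p 0.0229). Ckap2, which is expressed in dividing cells, lost its call without WT replicate 3 (adjusted p 0.0507), without WT replicate 5 (0.0510) and without mdx/mTR replicate 2 (0.0690).

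Of 11 cell death targets, 5 rose and 3 fell, where 25.0% of all tested genes were higher and 23.4% lower. With library totals alone 1 fell. With a filter of 1 CPM in 6 libraries, under which fewer genes are tested, 2 rose. Pmaip1, which encodes the BH3-only protein NOXA, rose from 0.147 to 0.911 CPM (edgeR log2 fold change 2.62 ± 0.59 SE, adjusted p 0.00248). This rise rested on low counts, 2 to 9 per WT library and 16 to 115 per mutant library. The mutant median was 0.566 CPM, and the highest value was 2.45 CPM in mdx/mTR replicate 5. Apaf1, the scaffold of the apoptosome, rose from 5.03 to 8.42 CPM (0.74 ± 0.14 SE, edgeR adjusted p 8.39e-04), and Eda2r, a receptor of the TNF family, from 25.5 to 43.1 CPM (0.76 ± 0.16 SE, edgeR adjusted p 0.00136). Perp, a membrane protein of desmosomes, fell from 1.497 to 0.727 CPM (-1.03 ± 0.22 SE, edgeR adjusted p 0.00198). The others that passed, named after their values were seen, were Pidd1 and Bid, which rose, and Ei24 and Phlda3, which fell; Ei24 (edgeR adjusted p 0.159) and Phlda3 (0.260) were not called with library totals alone. Of 12 fits without 1 mouse, 3 lost the call for Pidd1 and 8 that for Phlda3.

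Of 7 DNA repair targets, 2 fell and 0 rose (0 also at an unadjusted p under 0.05 and under every alternative, including DESeq2). Over all tested genes 23.4% were lower and 25.0% higher, and the difference of so short a list from these shares was not tested. Rrm2b, a subunit of ribonucleotide reductase, fell from 35.0 to 26.6 CPM (edgeR log2 fold change -0.40 ± 0.08 SE, adjusted p 7.79e-04), and Polh, a polymerase that copies past damaged bases, from 19.97 to 16.3 CPM (-0.29 ± 0.05 SE, edgeR adjusted p 2.40e-04). With library totals alone the log2 fold changes were -0.24 for Rrm2b and -0.14 for Polh. The median of this list was -0.13, and 0.02 with library totals alone.

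Of 13 metabolic and stress targets, 4 were higher and 4 lower, where the shares over all tested genes were 25.0% and 23.4%. With library totals alone 6 were higher and 1 lower, and 6 were higher with upper quartile scaling. Tigar, an enzyme that lowers the flux of glycolysis, fell from 203 ± 27.8 to 107 ± 12.4 CPM (edgeR log2 fold change -0.92 ± 0.10 SE, adjusted p 7.97e-06), with WT at 157 to 242 CPM and mdx/mTR at 95.5 to 129 CPM. Dram1, a lysosomal protein linked to autophagy, rose from 2.21 to 5.17 CPM (1.22 ± 0.17 SE, edgeR adjusted p 6.53e-05). Ninj1, a protein of membrane rupture, rose from 13.1 to 22.5 CPM (0.78 ± 0.10 SE, edgeR adjusted p 4.11e-05), and Cd82, a membrane tetraspanin, from 8.54 to 17.0 CPM (0.99 ± 0.15 SE, edgeR adjusted p 1.76e-04). The macrophage markers given above rose in the same muscles, and their part in these rises was not tested. Named after their values were seen, Fdxr rose and Ephx1, Slc19a2 and Pank1 fell, the last 3 without a call when libraries were scaled by totals (edgeR adjusted p 0.0921, 0.0636 and 0.342). The call for Pank1 was lost in 6 of 12 fits without 1 mouse.

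**Figure D5:**
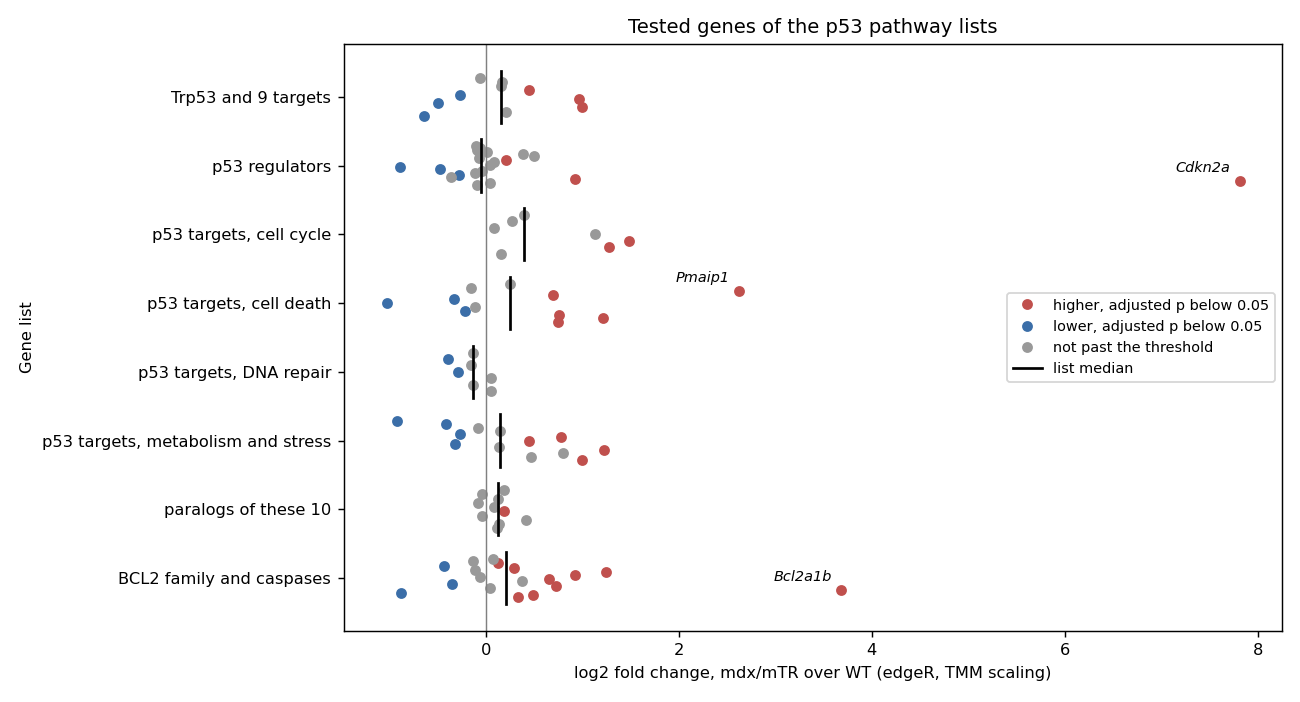
Fold change between the groups (log2, mutant over wild type, edgeR with TMM scaling) for each tested gene of the lists around p53, coloured by call, with a black bar at the median of each list; the vertical spread within a list carries no value. Cdkn2a lies far to the right at 7.81, and each list but the paralogs, the cell cycle targets and the DNA repair targets holds genes called in both directions.

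Of 18 genes of the BCL2 family and the caspase cascade, on which the death-promoting targets act, 9 rose and 3 fell. Over all tested genes, 25.0% were higher and 23.4% lower, and the difference from these shares was not tested. Bak1, a pore former like Bax, rose from 22.0 to 30.9 CPM (edgeR log2 fold change 0.49 ± 0.07 SE, adjusted p 6.99e-05). Bcl2l11, which encodes the BH3-only protein BIM, rose from 10.6 to 17.5 CPM (0.73 ± 0.11 SE, edgeR adjusted p 1.51e-04). Bcl2a1b rose from 0.0631 to 0.849 CPM (edgeR adjusted p 8.85e-05), but belongs to a group of near-identical copies, so its count is uncertain. The protective member Bcl2l2 fell from 57.5 to 45.0 CPM (-0.35 ± 0.05 SE, edgeR adjusted p 5.60e-05), by a log2 fold change of -0.19 with library totals alone, and Bcl2 fell as given above. The median log2 fold change of the list was 0.20. Named after their values were seen, Bok, Bmf, Bad, Casp9 and Diablo rose and Cycs, the gene of cytochrome c, fell, with the call for Diablo lost in 9 of 12 fits without 1 mouse.

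In the authors' deposited table the log2 fold changes were 0.94 for Bbc3, 0.92 for Gadd45a, 0.43 for Sesn1, -0.65 for Aen, -0.50 for Ccng1 and -0.28 for Mdm2. The authors' deposited table gives adjusted p-values of 0.303 for Trp53, 0.110 for Bax, 0.379 for Trp53inp1 and 0.438 for Zmat3, so the same 4 genes lie above 0.05 there.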

How the data were processed

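Messenger RNA of the tibialis anterior was sequenced from 12 mice, 6 per group, after column extraction with an RNA integrity above 9, per the labels' protocols. The authors deposited raw counts per gene and a table of log2 fold changes with p-values; the submitters' processing notes name FastQC, STAR, DESeq2 and the mm10 build, without versions. The read counter, annotation and strand handling are not given in the sources used here. The authors' deposited table also holds a mean normalised signal and a Wald score per gene, which were not used. The deposited counts were analysed, and the log2 values and p-values of the authors' deposited table were only read beside them.

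Genes were filtered with filterByExpr (13937 of 24421 kept, 99.97% of counts), scaled by TMM and tested with edgeR 4.0.16 (limma 3.58.1, R 4.3.3) by the quasi-likelihood test on group alone, with Benjamini-Hochberg adjustment over all tested genes and a threshold of 0.05. Standard errors and 95% intervals of fold changes come from that fit. Ratios of counts within a library used a pseudocount of 0.5 and a two-sided exact permutation test, adjusted over 3 ratios. Alternatives were other scalings and filters, DESeq2 1.42.0, limma-voom, a replicate block and leaving out each mouse. On simulated data with 200 changed genes among 13842, edgeR recovered 64.0% of those changed by 0.5 and 94.9% of those changed by 1 on the log2 scale, with 11 false calls. In the data, 6736 of 13937 genes were called, a far larger share, so these figures check the code and do not describe this comparison.

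Totals of 35136327 to 60330410 counts put 3 counts at 0.0460 to 0.0837 CPM; such a floor covers counting error only. Replicates of a group differed by more than counting noise (chi-square per degree of freedom 9.29 to 122 over 30 pairs). The p-values set the difference between groups against the spread between these mice and take the mice as independent. The labels do not say whether litters or preparations were shared.

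Positions and exon lengths come from GENCODE M21 on GRCm38, promoter windows from RefSeq. The members and gene lists were chosen with earlier results of these data known. Named were all 10 genes, up to 4 called genes of each list with the smallest p, all paralogs, Cdkn1a, Bcl2, the 3 genes nearest to Trp53, and Dmd. A further called gene of the lists is not reported here by name.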

Additional observations from a re-analysis of the deposited data

Results flagged for a closer look

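Among 126 groups of 6 values, 9 held a mouse that stood apart, its gap to the nearest other mouse exceeding 0.625 of the whole range of its group; chance gives about 6.3. Among the 10 genes this was Trp53inp1 in mdx/mTR replicate 1, whose level of 36.8 CPM compares with 21.9 to 23.8 CPM for the remaining mutants. The same mouse had Trp73 at 0.0872 CPM against 0 to 0.0213 CPM, a value that rests on 5 counts of a gene too low to test. In mdx/mTR replicate 5, Apaf1 had 12.3 CPM (others 6.68 to 8.50), Bid 3.09 CPM (others 0.889 to 1.504) and Bcl2a1b 1.64 CPM (others 0.458 to 0.899). In WT replicate 5, Bcl2 had 8.46 CPM (others 5.66 to 6.44) and Sesn2 4.81 CPM (others 2.81 to 3.41). In WT replicate 2, Rrm2b was low at 32.0 CPM (others 35.0 to 36.2) and Cdkn2a had 0.0837 CPM (others 0 to 0.0274), a value that rests on 3 counts.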

How the results depend on the processing

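All 6 called genes among the 10 kept their call and direction in all 21 alternatives. Their log2 fold changes ranged over 0.92 to 1.15 for Bbc3, 0.90 to 1.11 for Gadd45a, 0.39 to 0.60 for Sesn1, -0.31 to -0.12 for Mdm2, -0.55 to -0.35 for Ccng1 and -0.66 to -0.49 for Aen. With library totals alone, 5596 of all genes were higher and 1560.0 lower, against 3479 and 3257 with TMM; 5 of the 10 genes were higher, and 9 genes of the wider lists were lower against 15, with 35 higher against 24. Without 1 mouse, 3163 to 3562 of all genes were higher and 2950.0 to 3254 lower. Reversed log2 fold changes were found for uncalled genes: with library totals alone Zmat3 (0.0993), Sesn2 (0.0852), Isg20 (0.112) and Trp53inp2 (0.111); without 1 mouse Sesn2 (0.0582, WT replicate 5), Isg20 (0.117, 0.0531 and 0.0133, WT replicates 2 and 6 and mdx/mTR replicate 6), Gadd45g (-0.0600, mdx/mTR replicate 1) and Trp53inp2 (0.0125, mdx/mTR replicate 5). Over the fits without 1 or 2 mice the ranges were -0.165 to 0.0582 for Sesn2, -0.155 to 0.117 for Isg20, -0.0600 to 0.574 for Gadd45g and -0.0812 to 0.0125 for Trp53inp2. Isg20 also reversed without WT replicate 2 and mdx/mTR replicate 5 together (0.0805), an alternative chosen after seeing the data. The causes were not tested. Same-numbered mice deviated with correlations of -0.137 to 0.319, over 0.1 in 2 of 6, so the numbers were not taken to pair mice. With the replicate block, 6420 genes were called against 6736, with 6197 shared, and the difference of the Mdm2 to Trp53 ratio, -0.407, had an adjusted p of 0.0625 by an exact sign-flip test. Low counts limit Bbc3 most among the 10 genes, at 40 to 61 counts per WT library.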

Other observations

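The genes whose profile was most like that of Trp53 were ranked by the root mean square difference of log2(CPM + 0.5), centred per gene, over the 12 libraries, among 9508 genes with a mean of at least 5 CPM. Bax was the nearest (0.0992), followed by Pygo2 (0.102), a chromatin-binding cofactor of Wnt signalling, and Phka2 (0.110), a subunit of phosphorylase kinase. Zmat3 ranked 2241 (0.215), Sesn1 6551 (0.308), Mdm2 6593 (0.309) and Trp53inp1 8085 (0.382). Farther away were Ccng1 at 8524 (0.427), Aen at 8596 (0.436) and Gadd45a at 9015 (0.535), while Bbc3 lay below 5 CPM. These are descriptions over libraries that share their scaling, with no test. Several macrophage markers, as given above, had their lowest and highest mutant values in the same mice as Trp53 and Bax. Pygo2 itself rose from 15.8 to 18.8 CPM (log2 fold change 0.25, edgeR adjusted p 0.0266).

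A looser search of the promoter windows, for a pair of half-sites with at most 2 mismatches in 20 letters and a spacer of up to 13 bases, found a match for 5 of the 8 genes with a window, against 11.5% of all genes. Ccng1, which fell, and Bax, which did not pass, each held a pair with 1 mismatch. The 2 were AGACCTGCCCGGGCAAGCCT for Ccng1, with adjoining half-sites, and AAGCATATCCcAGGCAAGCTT for Bax, with a spacer of 1 base in lower case. Gadd45a and Sesn1, which rose, and Aen, which fell, each held a pair with 2 mismatches. As for the exact half-sites, the choice of known targets limits what the share of genes with a match can show.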
